A study of Homo sapiens with 6 samples.

Results

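The CYP2C and CYP3A genes encode the cytochromes P450 that carry out much of the drug oxidation in human liver, and chromatin binding of the Tandem-Tudor domain (TTD) of UHRF1 was followed over 7 of them, CYP2C8, CYP2C18 and CYP2C19 on chromosome 10 and CYP3A4, CYP3A5, CYP3A7 and CYP3A43 on chromosome 7. These genes were taken by name out of 20033 protein-coding genes of GENCODE release 44 by a rule that uses only gene positions, but with earlier results of these data known. TTD peaks were counted over the gene body, over 2.5 kb on each side of the transcription start site (TSS) and over the span from the first to the last listed gene of each family, which is called the cluster. Cover is the percent of bases of such a window that lie in peaks, and a peak counted when it shared at least 1 bp with the window.

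The peaks come from CIDOP, a pull-down like ChIP in which a GST-tagged reading domain, the human UHRF1-TTD, takes the place of an antibody. Native mononucleosomes were prepared with MNase from untreated HepG2 cells, an established hepatoblastoma line that is labelled as liver. Of the 6 libraries, the 2 biological replicates of the TTD pull-down were averaged by the authors into a single signal before 31569 broad peaks were called on hg38. The 2 libraries of the H3K9me2 ChIP and the 2 inputs were not analysed here. The list gives positions and widths only, so the depth behind a peak is unknown, no error between replicates can be given and no test was possible. All values below describe this one pooled list. RNA was not measured, so the liver label of the line was not checked against marker genes.

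P450 enzymes sit in the membrane of the endoplasmic reticulum and use a haem group and electrons from P450 oxidoreductase to oxidise their substrates. In liver, transcription of the CYP2C and CYP3A genes depends on hepatocyte factors such as HNF4A and on the xenobiotic receptors PXR and CAR, which bind as heterodimers with RXR to pairs of the hexamer AGGTCA and its variants. CYP3A4 is the main form of adult liver, CYP3A7 is the fetal form, CYP3A5 is made in only some adult livers and CYP3A43 is expressed weakly. CYP2C8 and CYP2C19 are hepatic enzymes of drug oxidation, whereas CYP2C18 is mostly transcribed outside the liver. HepG2 cells are known for low levels of many of these enzymes. The TTD binds histone H3 methylated at K9, and the study reports stronger binding when K4 of the same tail is monomethylated as well.

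The promoters are shown because those of CYP3A7 and CYP3A4 are almost the same sequence and differed in TTD peaks. RefSeq promoter sequences (GRCh38.p14) were found for 6 of the 7 genes, all but CYP2C18, and equal the hg38 sequence used here. Each line gives the bases before the gene start, 5′ to 3′ on the strand of the gene, with the hexamers AGGTCA and TGAACT and the TATA motif TATAAA in capitals. The line for CYP3A4 has 186 bases and stops 64 bases short of the RefSeq start, where the outermost gene model of GENCODE begins, and the others have 250 bases.
CYP3A5: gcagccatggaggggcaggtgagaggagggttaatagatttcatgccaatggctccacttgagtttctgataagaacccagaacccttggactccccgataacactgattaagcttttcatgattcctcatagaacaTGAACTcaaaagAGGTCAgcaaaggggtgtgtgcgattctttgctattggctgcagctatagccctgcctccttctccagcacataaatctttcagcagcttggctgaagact
CYP3A7: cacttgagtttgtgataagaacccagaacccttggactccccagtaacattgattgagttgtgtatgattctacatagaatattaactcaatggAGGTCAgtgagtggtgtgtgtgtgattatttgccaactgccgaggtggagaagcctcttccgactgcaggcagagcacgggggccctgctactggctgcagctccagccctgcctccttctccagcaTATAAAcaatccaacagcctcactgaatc
CYP3A4: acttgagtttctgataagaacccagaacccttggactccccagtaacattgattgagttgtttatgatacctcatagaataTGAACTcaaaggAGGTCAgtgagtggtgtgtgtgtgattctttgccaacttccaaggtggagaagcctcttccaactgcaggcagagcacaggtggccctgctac
CYP3A43: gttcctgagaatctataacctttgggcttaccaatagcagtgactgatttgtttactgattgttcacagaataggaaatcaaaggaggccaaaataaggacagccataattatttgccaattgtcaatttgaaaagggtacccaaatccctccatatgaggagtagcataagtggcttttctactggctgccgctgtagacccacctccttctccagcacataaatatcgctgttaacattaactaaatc
CYP2C19: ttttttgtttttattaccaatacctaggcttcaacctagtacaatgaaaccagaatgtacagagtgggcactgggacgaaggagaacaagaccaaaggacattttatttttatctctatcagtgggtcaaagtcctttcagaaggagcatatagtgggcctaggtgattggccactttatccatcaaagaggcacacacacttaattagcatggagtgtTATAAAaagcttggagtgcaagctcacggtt
CYP2C8: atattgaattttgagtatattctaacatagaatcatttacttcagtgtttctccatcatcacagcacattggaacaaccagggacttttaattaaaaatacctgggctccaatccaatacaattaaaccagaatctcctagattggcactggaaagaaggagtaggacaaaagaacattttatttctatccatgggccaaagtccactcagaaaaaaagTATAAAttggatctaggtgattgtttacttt

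On chromosome 7, all 250 bases printed for CYP3A5 (99679997 to 99680246, minus strand) and for CYP3A7 (99735197 to 99735446, minus strand) lay in TTD peaks. None of the bases printed for CYP3A4 (99784249 to 99784434, minus strand) or CYP3A43 (99827763 to 99828012, plus strand) did. The promoters of CYP3A7 and CYP3A4 are identical at 174 of 186 aligned bases (93.5%), yet the first was covered to 100% and the second to 0%. CYP3A5 and CYP3A4 share 84.7% of their aligned promoter bases, and CYP3A43 shares 74.0% to 75.1% with the other CYP3A genes. On chromosome 10 the promoters of CYP2C19 (94762431 to 94762680, plus strand) and CYP2C8 (95069498 to 95069747, minus strand), at 71.2% identity, both contained no peak.

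Both hexamers, TGAACT first and 6 bases on the other, form the arrangement known as the PXR element of the proximal CYP3A promoters. This pair was found in CYP3A5 at bases -113 to -96 and in CYP3A4 at bases -169 to -152, counted back from the RefSeq start. In CYP3A5 it lay inside a TTD peak, and in CYP3A4 it lay in the gap between peaks. Only exact matches were counted. CYP3A7 has AGGTCA at -156 to -151, but the 6 bases in the place of its partner read TTAACT and not TGAACT. CYP3A43, CYP2C8 and CYP2C19 have neither hexamer in this window. Of 27305 promoters of the same length, 3 hold the spaced pair on either strand, those of CYP3A4, CYP3A5 and ITGB1BP2. The first hexamer of the pair alone is in 8.91% of these promoters and the second in 12.1%. The TATA motif, in 11.1% of all promoters, was present in CYP2C19, CYP2C8 and CYP3A7. In CYP3A4 the 64 bases nearest to the RefSeq start were not searched for any motif, so the positions at which the other genes hold the TATA motif were not examined there.

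The other motifs searched, on both strands, were those of hepatocyte factors. CAAAG, an HNF4 core, is in 42.2% of all promoters and was in 5 of the 6 printed here, with CYP3A7 as the exception, and in CYP3A4 it overlaps the bases between the hexamers. The HNF1 core GTTAAT, in 6.22% of all promoters, was in CYP3A5, CYP3A7 and CYP3A43. The forkhead motif TGTTTAC, in 2.98% of all promoters, was in CYP2C8 and CYP3A43. These matches describe letters in the sequence and not occupied sites.

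The 2 clusters differed widely in TTD peaks. The CYP3A cluster (chromosome 7, 99648194 to 99866093) held 18 peaks over 217900 bp, which covered 36.5% of it. The CYP2C cluster (chromosome 10, 94683729 to 95069497) held 4 peaks over 385769 bp, and 2.33% of it was covered. Per Mb this is 82.6 peaks in the CYP3A cluster against 9.22 over chromosome 7, and 10.4 in the CYP2C cluster against 10.8 over chromosome 10. Cover of the whole chromosomes was 2.59% and 3.17%, so the CYP2C cluster was close to the level of its chromosome and the CYP3A cluster was far above it.

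Chromosome 7 was divided into adjoining windows as long as the CYP3A cluster, of which 729 did not touch the cluster. Their median cover was 0.821%, the highest was 35.9%, and none reached the cover of the cluster. Over the whole genome 71 of 14163 windows of this size (0.501%) were covered as much. For the CYP2C cluster, the cover was reached by 127 of the 344 windows of chromosome 10 that lay away from it (36.9%), and their median was 1.52%. With 50 kb added on both sides its cover rose to 5.25% and its number of peaks to 8, whereas the cover of the CYP3A cluster fell to 25.5%.

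**Figure D1:**
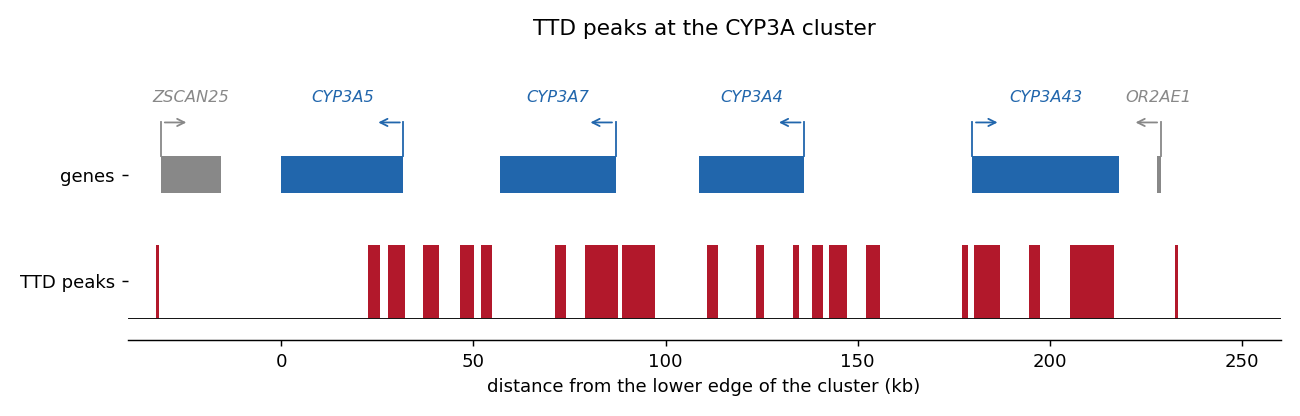
TTD peaks (red) and genes (blue, members; grey, nearest neighbours) along the CYP3A cluster, with the distance in kb from its lower edge on the x axis and arrows at the TSSs showing the direction of transcription. The 18 peaks lie within the borders of the cluster, and no peak lies between the cluster and ZSCAN25 or OR2AE1.

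Of the 18 peaks in the CYP3A cluster, 10 overlapped one of the 4 genes and 8 lay outside them. Their median width was 3415 bp, and 15 of the 18 were at or above the median width of the whole list, 2250 bp, as 50.0% of all peaks are. The gaps between the genes were covered about as much as the genes. The 25039 bp from CYP3A5 to CYP3A7 were covered to 44.3%, the 21763 bp from CYP3A7 to CYP3A4 to 42.7% and the 43764 bp from CYP3A4 to CYP3A43 to 30.3%. In the first of these, 2 peaks lay in the pseudogene CYP3A51P, which was covered to 53.1% and which a read-through gene model joins to CYP3A7.

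Outside the outermost CYP3A genes the peaks ended. The 15785 bp between ZSCAN25, a zinc finger gene, and CYP3A5 held no peak, and neither did the 9968 bp between CYP3A43 and the olfactory receptor gene OR2AE1. No peak was in the body of ZSCAN25, OR2AE1 or TMEM225B, the next gene on the ZSCAN25 side. TRIM4, the second gene beyond CYP3A43, had 1 peak that covered 2.09% of it. The TSS windows of ZSCAN25 and TRIM4 were covered to 15.2% and 12.8%, and those of OR2AE1 and TMEM225B not at all.

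A peak was present in the body of 4 of the 7 genes, which are the 4 CYP3A genes, against 34.2% of all protein-coding genes and 42.1% of the 6149 genes within the range of lengths of the members. In the TSS window it was 5 of 7, the CYP3A genes and CYP2C18, against 16.9% of all protein-coding genes. When the midpoint of a peak had to lie in the TSS window, 3 of the 7 genes still counted, against 12.4% of all protein-coding genes by the same rule. The median body cover was 29.8% over the CYP3A genes, 0% over the CYP2C genes and 0% over all protein-coding genes, and the median cover of the TSS window was 64.6%, 0% and 0%. No peak overlapped more than 1 of the genes, but the genes of a cluster are neighbouring copies with similar sequence, so they are not independent of each other.

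**Figure D2:**
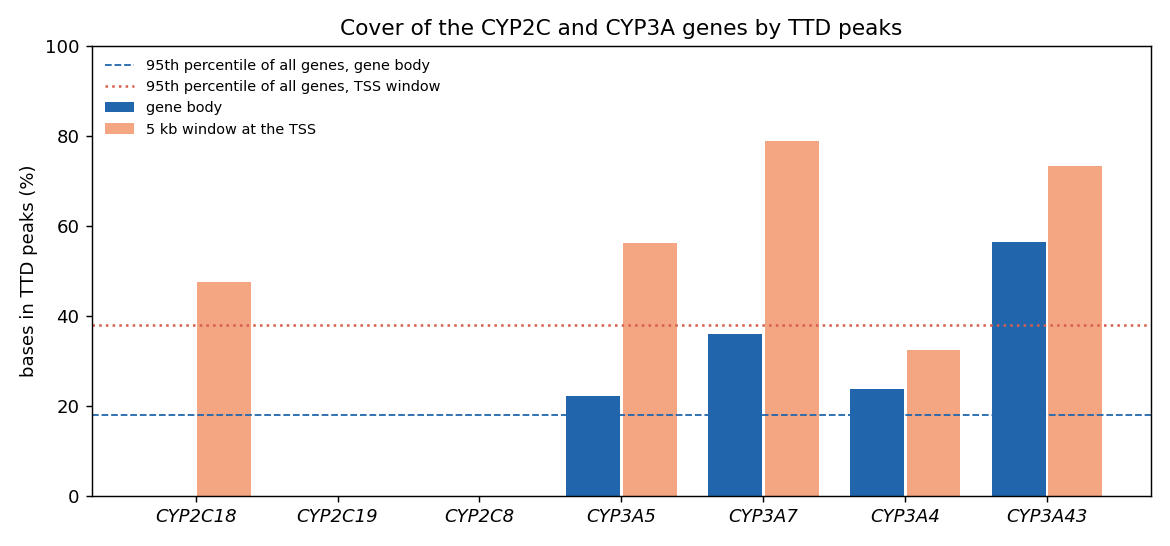
Percent of bases in TTD peaks for each gene, over the gene body (blue bars) and the 5 kb window at the TSS (orange bars), with the 95th percentile of all protein-coding genes as lines at 18.0% (gene body, dashed) and 37.8% (TSS window, dotted). All 4 CYP3A gene bodies lie above the dashed line, and CYP2C19 and CYP2C8 have no bar because both values are 0.

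CYP3A43 (ENSG00000021461.18, chromosome 7, 99828013 to 99866093, plus strand) was the most covered gene, with 3 peaks over 56.5% of its body. Among all protein-coding genes, 0.614% had as much. Its last peak, from 99853321 to 99864900, was 11580 bp wide, a width that 1.47% of all TTD peaks reach, and contained exons 8 to 12 of the 13 exons. The TSS itself lay in a gap of 1340 bp between peaks, 328 bp before a peak of 6940 bp in intron 1. Cover of the 5 kb at the TSS was 73.2%, 33.6% when only 1 kb on each side was taken and 43.4% with only the peaks of at least median width.

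CYP3A7 (ENSG00000160870.15, chromosome 7, 99705036 to 99735196, minus strand) was covered to 35.9%, and 1.62% of genes had as much. A peak of 8500 bp, from 99727201 to 99735700, ran from position -504 to position 7995 relative to the TSS, through exon 1, intron 1 and exon 2. Next to it on the upstream side, a peak of 8790 bp ran from -10354 to -1565. The TSS window was covered to 78.8%, which 0.734% of genes reach. With the starts of all 4 annotated transcripts of CYP3A7 the mean fell to 46.8%.

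CYP3A4 (ENSG00000160868.16, chromosome 7, 99756960 to 99784248, minus strand) had 3 peaks in the body and a cover of 23.8%, equalled by 3.24% of genes. Its TSS lay in a gap of 3380 bp, between a peak of 1420 bp that begins 1388 bp downstream and an upstream peak of 3030 bp that ends at position -1993. The 500 bp centred on the TSS were therefore at 0%, as was the window of 1 kb on each side, while the window of 2.5 kb on each side reached 32.4%. These values rested partly on narrow peaks. With only the peaks of at least median width, 11.1% of the body and 10.2% of the TSS window were covered.

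Upstream of CYP3A4 the cover varied between steps of 5 kb and in 3 of 4 was above that of its TSS window. It amounted to 60.2% in the first 5 kb, 72.2% between 5 and 10 kb, 22.4% between 10 and 15 kb and 74.6% between 15 and 20 kb. Over the whole 20 kb this was 57.4%, and 0.819% of protein-coding genes had as much there. This stretch is where the distal xenobiotic-responsive enhancer of CYP3A4 is known to lie, although its borders were not looked up here. Upstream cover over 20 kb was 46.5% for CYP3A7, 41.0% for CYP3A5 and 8.90% for CYP3A43, and for CYP3A43 all of it came from the first 5 kb.

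CYP3A5 (ENSG00000106258.16, chromosome 7, 99648194 to 99679996, minus strand) was covered to 22.2%, and 3.69% of genes had as much. With the gene divided into 3 equal parts, both of its peaks lay in the 5′ part, of which 66.7% was covered, and the other parts had none. The peak at the TSS, from 99676031 to 99680300, ran from position -304 to position 3965, so that the cover was 100% in the 2.5 kb after the TSS and 12.2% in the 2.5 kb before it. The whole window was at 56.1%. In CYP3A7 the upstream side was at 57.6% and the downstream side at 100%.

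**Figure D3:**
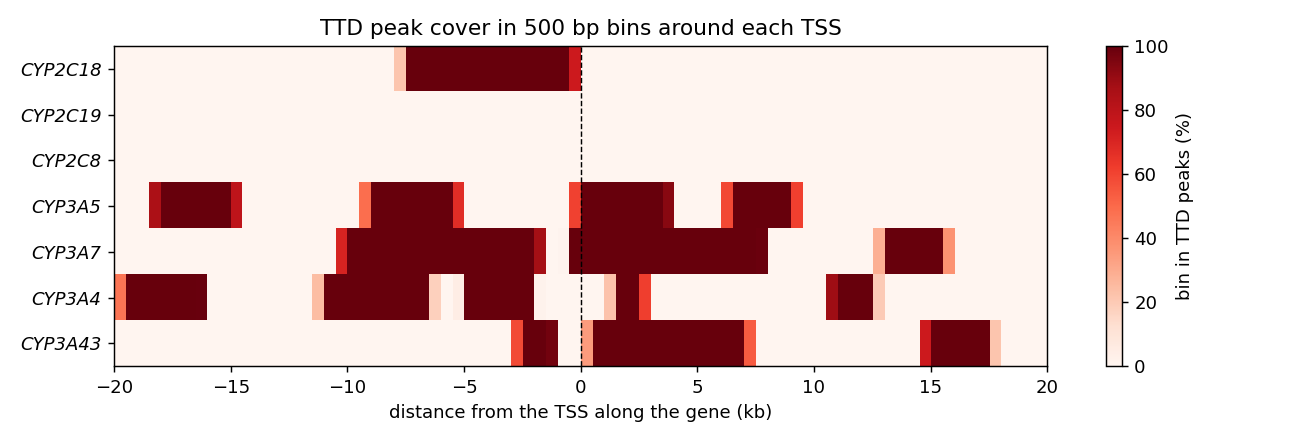
Percent of each 500 bp bin in TTD peaks (color) from 20 kb upstream to 20 kb downstream of the TSS of each gene, with transcription running to the right. Peaks span the TSS of CYP3A5 and CYP3A7, lie on both sides of it in CYP3A4 and CYP3A43, end just before it in CYP2C18 and are missing over the whole range in CYP2C19 and CYP2C8.

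CYP2C18 (ENSG00000108242.13, chromosome 10, 94683729 to 94736190, plus strand) was the only one of the 3 listed CYP2C genes with a peak in the TSS window. This peak, from 94676121 to 94683600, was 7480 bp wide and ended 129 bp before the TSS, so that 94.9% of the 2.5 kb upstream and 0% of the 2.5 kb downstream were covered. The TSS window as a whole was at 47.4%, which 2.94% of genes reach, and the gene body was at 0%. Since this peak stops before the first gene, it is not part of the cluster as defined here. It is also the only peak in the 69823 bp between HELLS, which encodes a chromatin remodeler, and CYP2C18.

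From the end of that peak, 212650 bp without a TTD peak followed, and both CYP2C18 and CYP2C19 (ENSG00000165841.11, chromosome 10, 94762681 to 94855547, plus strand) lay wholly in it. Of the 31545 stretches between neighbouring peaks in the genome, 9.49% were as long. The TSS of CYP2C19 was 79081 bp from the nearest peak, and the 3′ end of the gene was 40703 bp from one. CYP2C8 (ENSG00000138115.15, chromosome 10, 95036772 to 95069497, minus strand) lay in another stretch without peaks, of 156870 bp (13.1% of stretches were as long), and its TSS was 26114 bp from the nearest peak. The body, the TSS window and the 20 kb upstream of CYP2C19 and CYP2C8 were at 0%. Absence of a peak holds only for the cutoff of the authors and does not show that TTD signal was lacking.

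The 4 peaks of the CYP2C cluster all lay between CYP2C19 and CYP2C8, where 4.97% of 181224 bp was covered. This interval is the span between these listed genes and is not all intergenic. The widest of them, from 94898441 to 94905980, was 7540 bp wide, and the other 3 were 400 to 590 bp wide. Thus 1 peak of the cluster passed the median width of the list. Beyond CYP2C8 the peaks became frequent, and 10 peaks of 1530 to 4700 bp covered 23.1% of the 124702 bp between its 5′ end and ACSM6, a gene of the medium-chain acyl-CoA synthetase family.

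**Figure D4:**
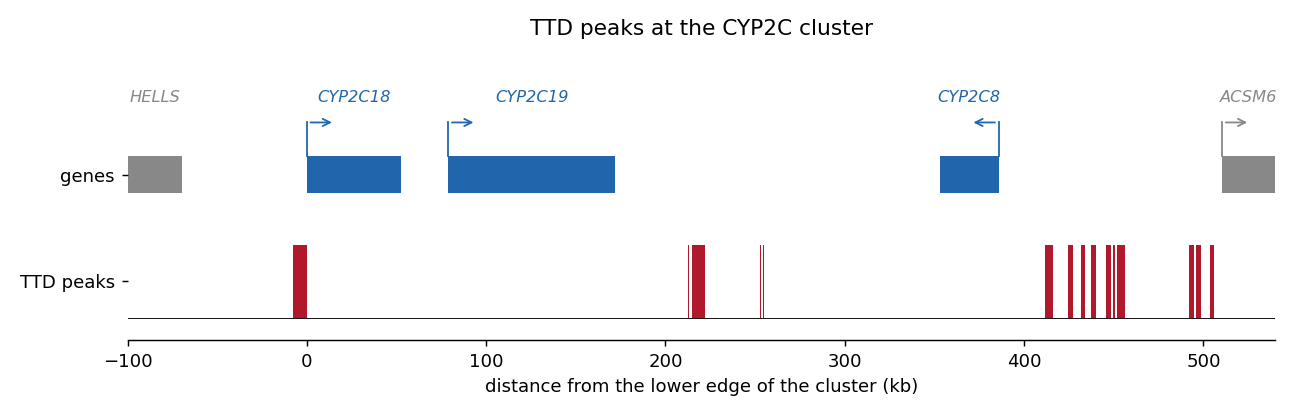
TTD peaks (red) and genes (blue, members; grey, nearest neighbours) along the CYP2C cluster and its surroundings, with the distance in kb from the lower edge of the cluster on the x axis and arrows at the TSSs. No peak overlaps CYP2C18, CYP2C19 or CYP2C8, and the 10 peaks between CYP2C8 and ACSM6 lie outside the cluster.

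The other neighbours of the CYP2C cluster had few peaks. HELLS had none in its body or TSS window, and TBC1D12, ACSM6 and PDLIM1 had 1 peak each over 1.96%, 4.87% and 8.06% of the body, with none in the TSS window.

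The 4 CYP3A genes share 13 exons in their MANE Select transcripts, and the TTD peaks fell on the same parts of several of them. Exon 4, of 100 bp, lay completely in a peak in all 4 genes, together with part of intron 4 and part of intron 3, or in CYP3A7 all of intron 3. Over all genes with such a transcript of 4 or more exons, exon 4 overlapped a peak in 2.53%. Exon 4 was singled out after its values were seen, and the 4 genes are neighbouring copies. The peaks on exon 4 were separate ones, 2040 bp wide in CYP3A4, 3100 bp in CYP3A5, 2830 bp in CYP3A7 and 2980 bp in CYP3A43, and they began 10558, 6206, 12856 and 14628 bp downstream of the TSS.

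Intron 1 also overlapped a peak in all 4 genes, as it did in 16.9% of the 18037 protein-coding genes with a MANE Select transcript of 2 or more exons. Its cover was 100% in CYP3A5 and CYP3A7, 84.0% in CYP3A43 and 36.2% in CYP3A4. Exons 1 and 2 were covered completely in CYP3A5 and CYP3A7 and not at all in CYP3A4 and CYP3A43. Exons 5, 6 and 7 with introns 5 and 6, and exon 13 with the 3′ UTR, were free of peaks in all 4 genes. The 3′ parts again divided the genes, since exon 12 was covered completely in CYP3A4 and CYP3A43 and not in CYP3A5 or CYP3A7. In coding sequence the cover was 17.6% for CYP3A5, 20.5% for CYP3A7, 17.4% for CYP3A4 and 56.1% for CYP3A43, against 22.3%, 37.1%, 25.5% and 56.8% in their introns.

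**Figure D5:**
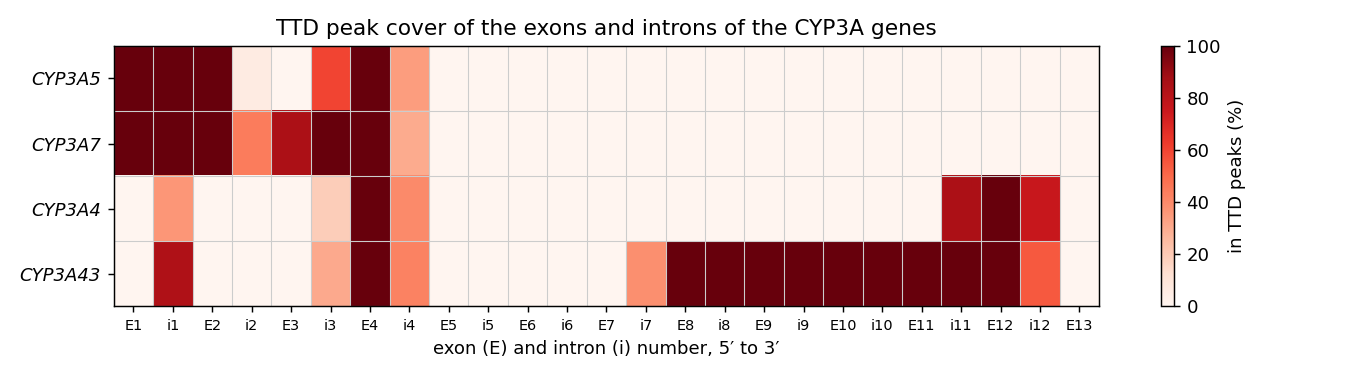
Percent of each exon (E) and intron (i) of the 4 CYP3A genes in TTD peaks (color), from the 5′ to the 3′ end of the MANE Select transcript and not to scale in length. Exon 4 is at 100% in all 4 rows, exons 5 to 7 and 13 are at 0% in all, and exons 1 and 2 are filled in CYP3A5 and CYP3A7 only.

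Since neighbouring copies could share reads, the sequence was compared between the genes. Protein identity, from translated coding sequences, was highest between CYP3A7 and CYP3A4 (88.5%), and among the CYP3A genes it was lowest between CYP3A7 and CYP3A43 (71.4%). The CYP2C proteins, of 490 residues each, were 77.1% to 80.8% identical. No stretch of 150 bases, the length of a read, occurred a second time within the cluster and 50 kb on each side of it in CYP3A4, CYP3A5, CYP3A7, CYP3A43, CYP2C8 or CYP2C18, and in CYP2C19 this was so for 1.52% of the stretches. In the peaks of the CYP3A cluster 0.0247% of the stretches occurred again. Copies elsewhere in the genome and matches with mismatches were not searched.

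All 7 TSSs lay in sequence with few CpG sites. The observed over expected CpG ratio in the 1 kb around the TSS was between 0.0626 (CYP2C8) and 0.228 (CYP2C18), and the median of all protein-coding genes was 0.688. Among the 3134 genes with a ratio no higher than that of CYP2C18, 16.0% had a peak in the TSS window. The GC content was 46.3% for CYP3A5, 49.9% for CYP3A7, 48.9% for CYP3A4 and 39.4% for CYP3A43, and 41.9%, 36.3% and 35.8% for CYP2C18, CYP2C19 and CYP2C8. GC content thus was higher at 3 of the CYP3A genes than at any CYP2C gene, and its part in the peak calls was not tested.

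Related genes were described in the same way, and their counts stand beside the 34.2% of all protein-coding genes with a peak in the body and the 16.9% with one in the TSS window. Among 11 other hepatic CYP genes, 6 had a peak in the body and 6 in the TSS window, with median covers of 2.39% and 13.1%, and the most covered were CYP1A1 (37.2%), which oxidises polycyclic aromatic compounds, and CYP27A1 (31.6%) and CYP8B1 (30.1%) of bile acid synthesis. CYP3A43 was above all of them in body cover and CYP3A7 was above all but CYP1A1. Among the 7 UGT2B genes, which encode glucuronosyltransferases in another cluster of liver genes, 5 had a peak in the body and 3 in the TSS window, with median covers of 15.4% and 0%, and the highest body covers were 78.6% for UGT2B15, 67.7% for UGT2B10 and 54.0% for UGT2B7.

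Of 14 genes for transcription factors that act on CYP2C and CYP3A genes, 9 had a peak in the body (34.2% of all protein-coding genes) and 4 in the TSS window (16.9%), with median covers of 3.64% and 0%. NR1I2, which encodes PXR, had the highest body cover of these with 33.6%, and 66.3% of its TSS window was covered. FOXA1, a forkhead factor, followed with 24.9% of a body of 6508 bp. AHR, the aryl hydrocarbon receptor, came next with 21.9%, from 23 peaks over an outermost gene model of 429794 bp. FOXA3, another forkhead factor, was at 12.1%, and HNF4A, the nuclear receptor named above, was at 8.72%. Of 3 partner genes, 2 had a peak in the body and 2 in the TSS window. POR, which encodes P450 oxidoreductase, had no peak within 126210 bp of its TSS, whereas the body of ALAS1, for haem synthesis, was covered to 14.7% and that of CYB5A, for cytochrome b5, to 7.01%.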

How the data were processed

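The authors trimmed the reads with Trimmomatic 0.38, checked them with FastQC 0.72 and mapped them to hg38 with HISAT2 2.2.1. They computed RPKM in 10 bp bins with deepTools 3.3.2 without blacklisted regions, averaged both TTD replicates, called broad peaks with MACS2 2.1.1 at fixed cutoffs and curated them by hand. No input track and no correction for copy number are named for the peak calling. The deposited list holds positions and widths in bp, not scores. No peak ran past a chromosome end of the hg38 sequence used here.

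Cover was computed by interval arithmetic with GENCODE release 44 on hg38, with the outermost gene start as TSS, and was tested on simulated data. The exons are those of the MANE Select transcripts. The named genes are the 7 members, the 2 nearest protein-coding genes on each side of a cluster, up to 6 genes of each list of related genes in order of body cover, and the genes with the most similar cover profile. ITGB1BP2 and CYP3A51P fall outside this rule and were chosen after their values were seen. The members and lists were chosen with earlier results of these data known. Alternatives were the 15790 peaks of at least median width, peaks joined below 1 kb, peak midpoints, other windows and starts, and other edges of the clusters. Promoters were taken from RefSeq, with 27305 promoters as background. Python 3.11.15, numpy 2.4.6, scipy 1.17.1, matplotlib 3.10.9 and Biopython 1.88 were used.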

Additional observations from a re-analysis of the deposited data

How the results depend on the processing

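No paired analysis was possible because both TTD replicates were pooled before peak calling, and for the same reason no replicate could be left out. A cover value counts as moved when it leaves the 95% Wilson interval of the main value, taken over fragments of 150 bp, and a count when it changes by more than 1.5 times. Neighbouring fragments are not independent of each other, so this interval is a yardstick and not a measure of error. Of 34 values for clusters and gene sets under other settings, 23 stayed within these limits and 11 moved. With peaks of at least median width, the mean body cover of the 7 genes was 18.0% (19.8% in the full list), the mean cover of the TSS windows 33.7% (41.1%), and the CYP2C cluster held 1 peak (4 in the full list). Counting by midpoint left 3 of the 7 genes with a peak in the TSS window (12.4% of all protein-coding genes by that rule). Bodies extended by 10 kb had a mean cover of 21.7%. TSS windows of 1 kb on each side gave 31.1%, and the starts of all transcripts 34.0%. With 50 kb added on both sides, the CYP2C cluster had 8 peaks and 5.25% cover and the CYP3A cluster 25.5% cover. Only bodies of protein-coding genes taken, the CYP2C cluster was at 0.0324%, and none of these bases lie in CYP2C8, CYP2C18 or CYP2C19, which were at 0%. Of 56 values for single genes, 46 stayed within the limits, but 18 values were 0 at the outset and remained 0. Joining peaks less than 1 kb apart changed none of the values for clusters, gene sets or single genes, so its share in these counts says nothing about stability. The methods of the study give a lower bound on read number, yet no depth per library was at hand, and a gene without a peak may hold signal below the cutoff.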

Other observations

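The profile of cover along the gene, in 20 equal bins from the 5′ to the 3′ end, was compared between each CYP3A gene and all 14901 protein-coding genes of at least 10 kb in this single peak list, by the mean absolute difference in percentage points. The most similar profile to CYP3A5 was that of BZW2 (6.65 points), followed by ZNF300 (7.48 points). For CYP3A7 it was that of HNMT, which encodes histamine N-methyltransferase (8.57 points), and then FRRS1 (10.8 points). CYP3A4 was nearest to LPAR6 (10.8 points) and to SLC3A1, a subunit of an amino acid transporter (11.5 points). For CYP3A43 the nearest profiles were those of C8A, a complement component made in liver (21.5 points), and UGT2B7 (23.9 points). None of the CYP3A genes was among the 2 most similar profiles of another.

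Within the CYP3A genes, cover was spread differently along the gene. With each gene divided into 3 equal parts, CYP3A7 had 79.5% in the 5′ part, 28.2% in the middle and 0% in the 3′ part. In CYP3A4 the 3′ part had the highest cover (33.3%, against 22.4% in the middle and 15.6% in the 5′ part), and in CYP3A43 the 3′ part was at 90.6%, the 5′ part at 54.7% and the middle at 24.1%.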
